A study of Mus musculus with 34 samples.

Results

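The muscle and heart transcription factor genes examined here are Myod1, Myf5, Myf6, Nkx2-5, Hand1, Hand2, Mesp1, Tcf21, Prdm6 and Msc, 10 genes taken by their names in the probe annotation. The rule used no measured value, but the genes were chosen with earlier results of these data known. Probes were found for 8 of them, 111 in all, and none carried the name Myf5 or Myf6. Neighbouring probes no more than 500 bases apart were joined into CpG islands, and 14 of the 16 runs had a value of at least 3 probes on all 34 arrays, out of 13620 such islands in the series. Nkx2-5 had 4 of these islands, Hand1 had 3, Prdm6 had 2, and Myod1, Msc, Mesp1, Hand2 and Tcf21 had 1 each, with 3 to 13 probes an island. A run of 2 probes upstream of Prdm6 was too short, and a run of 3 probes over the 3′ part of Hand1 had a score on 14 arrays, so neither was tested.

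Myod1 is the basic helix-loop-helix (bHLH) factor that can turn other cells into skeletal muscle, and Msc is a bHLH repressor of the progenitors of head muscles. Mesp1 marks the earliest mesoderm that gives rise to the heart, Nkx2-5 is a homeobox factor of heart progenitors, and Hand1 and Hand2 are bHLH factors that act in the left and right ventricles. Tcf21 is a bHLH factor of the epicardium and of the mesenchyme of kidney and lung, and Prdm6 represses genes in smooth muscle. CpG islands of such developmental regulators are usually free of DNA methylation in normal tissue, whether or not the gene is active, and methylation of an island promoter is known to go with stable silencing.

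DNA methylation was measured by methylated DNA immunoprecipitation (mDIP), in which an antibody to 5-methylcytidine enriches methylated fragments, and bound DNA (Cy5) was hybridized with input DNA (Cy3) on CpG island microarrays. Adult tissue comprised 16 arrays from female C57Bl/6 mice 3 months old, with 2 each of colon, pancreas, brain, kidney, liver, lung, muscle and spleen, and there were 5 arrays of whole embryos, 1 at each of 8.5, 9.5, 10.5, 11.5 and 12.5 dpc (days post coitum). Undifferentiated embryonic stem (ES) cells were of the lines EB5, J1 and TT2, and the 5 arrays of ES cells differentiated in vitro comprised 1 of embryoid bodies and 1 of cells given retinoic acid, both labelled as TT2, with 2 of endoderm and 1 of mesoderm from EB5. There were 2 teratomas, labelled as grown from J1, and 1 array each of sorted beta cells, the insulinoma line Min6 and the glucagonoma line αTC. The methods name NOD-SCID mice as hosts of the teratomas. The sorted beta cells came from transgenic mice with a Pdx1-GFP construct, of a range of ages. No genetic change is given for the other mice. Endoderm and mesoderm were sorted from a single reporter line derived from EB5, and the methods name J1 as the source of the retinoic acid treated cells and D3 and C4 as those of the teratomas, so the parent line of these 3 arrays was not settled. Muscle was not specified further in the labels, and no heart was among the tissues. Nothing in the labels says whether replicates came from separate animals or cultures, so the spread between arrays may be technical.

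The value of an island is its island methylation score, the mean over its probes of the Z-score of the log ratio of bound over input on that array. A score above 0 therefore means more enrichment than the average probe of the same array. The study took islands with a score below 0 in all tissue samples as constitutively unmethylated and a score above 0.75 as methylated, with scores taken by probe melting temperature (Tm). Here these limits are set on group means of scores without the Tm step. They serve as descriptions only and are not the study's rule. Probes differ in affinity, so scores of different islands were not set against each other. The score averages over all cells of a sample, so that methylation of a part of the cells and partial methylation of all cells cannot be told apart.

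The promoters of 3 genes are shown, chosen by the size of the difference at the promoter island among genes with a promoter entry. Nkx2-5 and Tcf21 had the largest differences between differentiated ES cells and adult tissue, and Mesp1 and Tcf21 between muscle and the other tissues. Their islands began near the start, with the first probe at base 25 (Nkx2-5), 8 (Mesp1) or 242 (Tcf21). In differentiated ES cells Nkx2-5 and Tcf21 were higher than in adult tissue and Mesp1 did not pass the test. The windows run from 250 bases before to 50 bases after the start on the minus strand and are from RefSeq (GRCm38.p6), at chr17:26841516-26841815 for Nkx2-5, chr10:22820094-22820393 for Tcf21 and chr7:79793541-79793840 for Mesp1. The arrays' files name no genome build, so probes and windows were not matched by position. Of the 7 genes looked up, 4 had an entry in the promoter table. Capitals mark each CpG, the dinucleotide that is methylated.
Nkx2-5: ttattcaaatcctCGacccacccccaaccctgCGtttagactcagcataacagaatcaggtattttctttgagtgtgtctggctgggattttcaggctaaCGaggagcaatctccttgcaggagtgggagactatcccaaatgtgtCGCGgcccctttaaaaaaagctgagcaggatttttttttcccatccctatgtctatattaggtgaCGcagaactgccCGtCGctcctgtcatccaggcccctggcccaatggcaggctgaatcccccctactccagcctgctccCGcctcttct
Tcf21: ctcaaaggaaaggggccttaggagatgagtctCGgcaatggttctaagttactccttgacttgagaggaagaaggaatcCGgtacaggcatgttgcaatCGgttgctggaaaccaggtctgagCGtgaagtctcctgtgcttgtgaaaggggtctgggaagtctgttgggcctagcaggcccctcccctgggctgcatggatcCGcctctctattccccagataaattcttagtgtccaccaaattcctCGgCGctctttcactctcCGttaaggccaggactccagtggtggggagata
Mesp1: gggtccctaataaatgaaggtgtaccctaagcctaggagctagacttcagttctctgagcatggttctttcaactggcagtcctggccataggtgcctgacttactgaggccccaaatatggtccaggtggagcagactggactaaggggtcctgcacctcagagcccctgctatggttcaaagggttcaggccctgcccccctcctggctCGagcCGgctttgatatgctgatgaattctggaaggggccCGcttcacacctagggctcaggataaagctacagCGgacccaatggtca
The Nkx2-5 window held 9 CpGs, and 45.8% of 32851 mouse promoter windows of this length held as many. The Tcf21 window held 8 (48.6%) and the Mesp1 window 4 (68.6%). Most probes of these islands lay beyond the downstream end of the windows.

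Median input signals were 3.07 to 7.34 times the local background and median bound signals 1.54 to 5.59 times, and the number of arrays in a group limits the precision of its mean. The array labelled J1 went against its label. Over all islands it correlated more closely with the second pancreas array (r = 0.965) than with EB5 (r = 0.793) or TT2 (r = 0.799), whereas EB5 and TT2 correlated at r = 0.881 and the pancreas arrays at r = 0.938. Its deposited table also departed from its scanner file (r = 0.113, against 0.894 to 0.991 on the other arrays). It was scanned on the same day as 6 adult arrays. Results that rest on undifferentiated ES cells are therefore given with and without it.

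In adult tissue most of these islands had a mean score below 0, as did most islands of the series. The mean of the 16 adult arrays was below 0 at 10 of the 14 islands, as at 71.0% of all islands. It was above 0.75 at 1 island, against 11.8% of all. That island lay over the 5′ part of Hand1 (chr11:57647542-57648020, 5 probes, 344 to 778 bases from the start, build not named). Its score was 0.245 (lowest), 1.21 (median) and 2.08 (highest) over the 16 adult arrays, so every adult array was above 0. Both colon arrays were highest, at 1.97 and 2.08, and the lowest was the first brain array at 0.245, beside 1.04 in the second. Its replicates were far apart in muscle, at 0.498 and 1.64. The order of the tissue means was colon, spleen, liver, kidney, lung, pancreas, muscle and brain. Only colon and spleen, among neighbours in this order, had replicates that did not overlap. At the neighbouring run over the 3′ part of Hand1 the mean was 0.478 over the 10 adult arrays that had a score.

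Colon stood apart at several of these genes. Both colon arrays were above the other 14 adult arrays at 4 islands, those of Msc, Mesp1, Hand1 (5′ part) and Tcf21, where 4.34% of all islands did so. At Mesp1 (chr7:79666070-79667133) they scored 0.593 and 0.699, and the other 14 arrays lay from -0.498 to 0.106. At Msc (chr1:14740303-14741054) they scored 0.382 and 0.384 against at most 0.110 elsewhere. At Tcf21 (chr10:22508649-22509325) they scored 0.583 and 0.704 against at most 0.417. This pattern was chosen after the values were seen and was not tested. The colon arrays were scanned on a day with no other array, so tissue and scan day cannot be told apart.

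**Figure D1:**
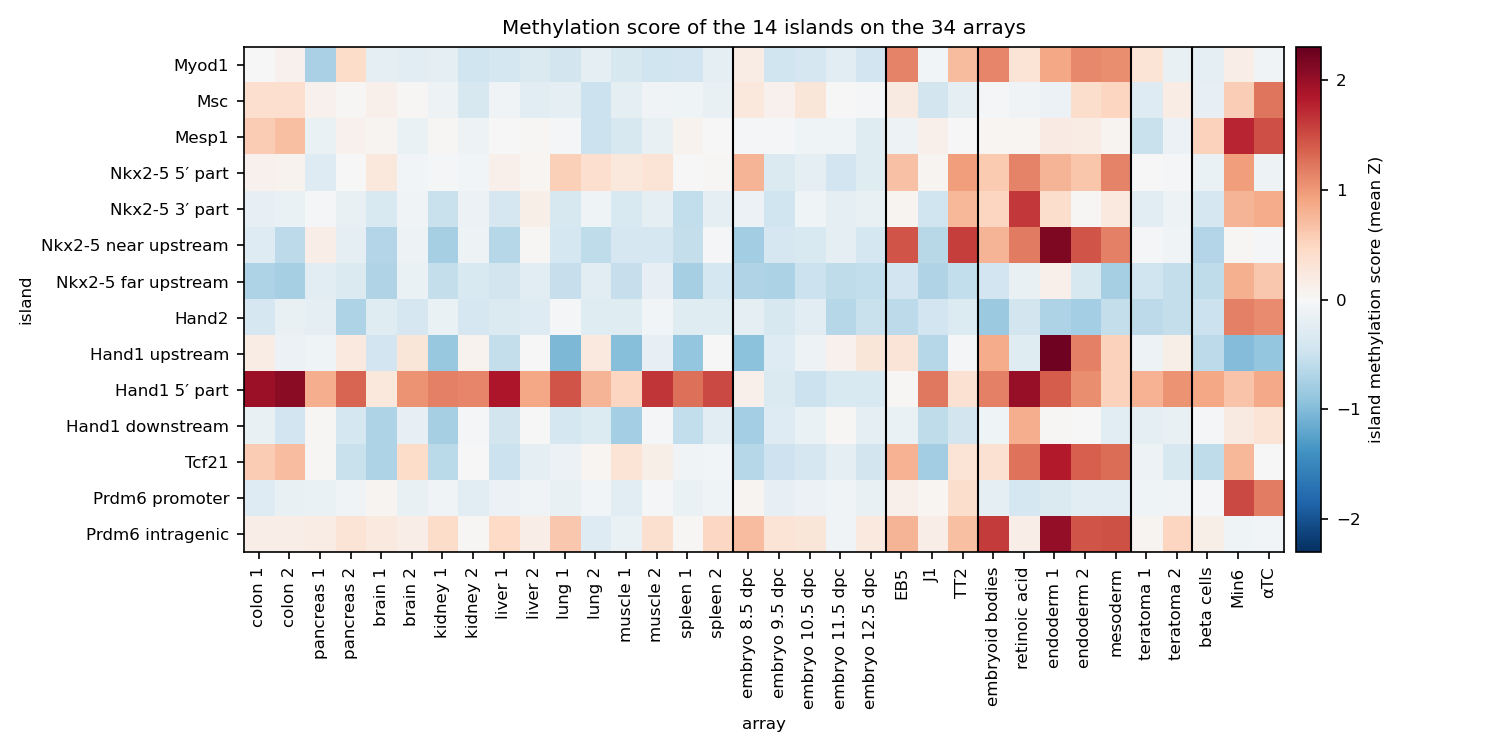
Island methylation score (mean Z, colour) of the 14 islands (rows) on the 34 arrays (columns), with lines between adult tissue, embryos, undifferentiated ES cells, differentiated ES cells, teratomas and pancreatic cells. The 5′ part of Hand1 is high in adult tissue and low in embryos, and Myod1, the near upstream island of Nkx2-5, Tcf21 and the intragenic island of Prdm6 are high in most differentiated ES cells.

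Muscle was compared with the other 7 adult tissues to ask whether genes that act in muscle differ in methylation there. No island of these genes was called. The Myod1 island (chr7:46244780-46245347, 5 probes inside the gene, 280 to 802 bases from its start) scored -0.368 and -0.464 in muscle, and the other 14 arrays ran from -0.744 through a median of -0.241 to 0.429. Muscle had the lowest mean of the 8 tissues at Myod1, and both arrays lay inside the range of the others. The difference was -0.174 ± 0.216 (SE), with an adjusted p of 1 by limma.

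The largest differences were also within the spread. Mesp1 scored -0.365 and -0.165 in muscle and 0.0452 ± 0.297 (SD, n = 14) elsewhere, a difference of -0.310 ± 0.135 (SE), and it was the only island of the 14 at an unadjusted p under 0.05 (limma p = 0.042, adjusted p = 1). Tcf21 scored 0.320 and 0.128 in muscle, second to colon, with a difference of 0.301 ± 0.245 (SE). The 5′ part of Nkx2-5 (chr17:26568663-26569151) scored 0.244 and 0.313, second to lung at 0.548 and 0.388, with a difference of 0.203 ± 0.117 (SE). The upstream island of Hand1 (chr11:57653223-57653508) scored -0.971 and -0.180, with a difference of -0.356 ± 0.363 (SE). The replicates of muscle were thus further apart at this island (0.790) than muscle was from the other tissues.

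Of the 14 islands 0 passed an adjusted p under 0.05 in limma, and 0% of all 13620 islands did so, with 172 at an unadjusted p under 0.05 in limma and 159 by the methods' t-test. At none of the 14 were both muscle arrays outside the range of the other 14 arrays, which was the case for 0.323% of all islands. In a two-sided exact permutation test of each island the lowest p was 0.2, and the smallest that 2 arrays against 14 allow is 0.0083. The median difference was -0.0662 over the 14 islands and -0.00466 over all.

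**Figure D2:**
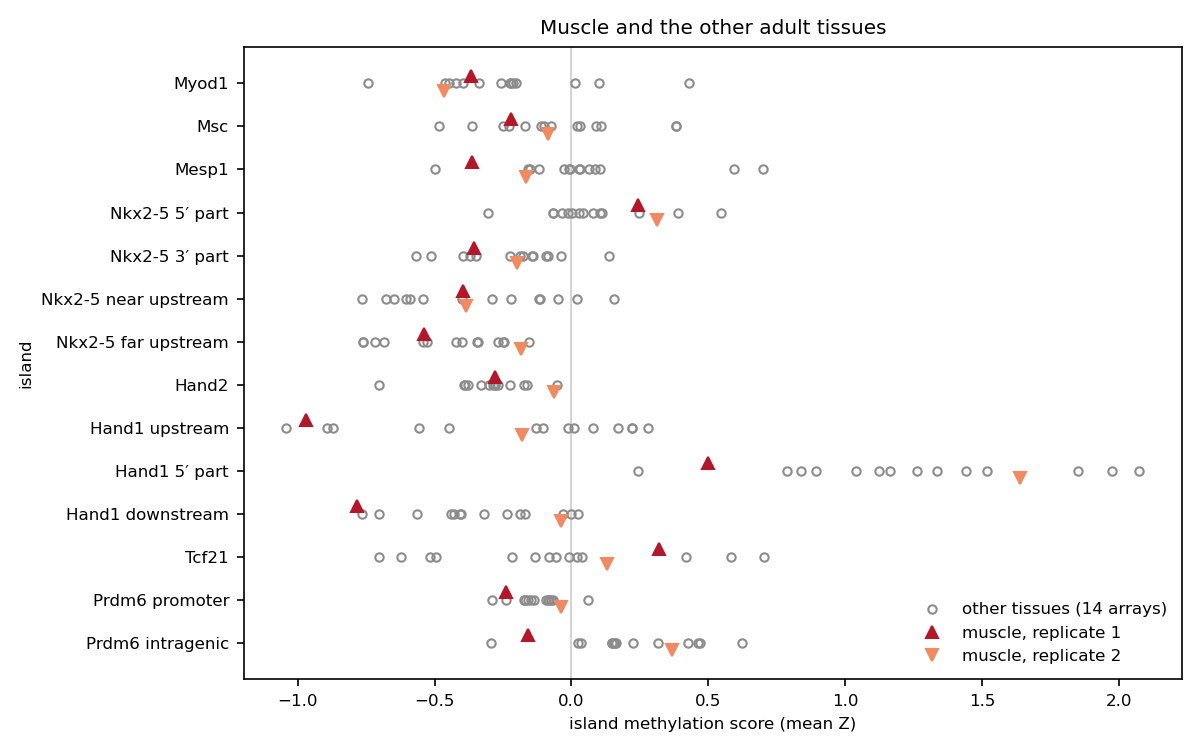
Island methylation score (mean Z, x axis) at each of the 14 islands, with the 14 arrays of other adult tissues as open circles and the muscle arrays as triangles. No island has both triangles outside the circles, and the triangles are furthest apart at the 5′ part of Hand1 (0.498 and 1.64).

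Technical batch moved with several of these values. The first muscle array shared its slide with the first lung array and its scan day with 5 other adult arrays, and the second muscle array shared neither with any array. At the upstream island of Hand1 the 6 adult arrays of that scan day lay from -1.04 to -0.446, and the other 10 from -0.180 to 0.279, with no overlap. The 3′ part of Nkx2-5 (chr17:26566157-26567460) also separated, at -0.569 to -0.350 against -0.225 to 0.136. These were 2 of the 14 islands, and 3.72% of all islands separated in this way. On its own slide the first muscle array differed from the first lung array by -0.338 at Mesp1 and 0.454 at Tcf21, and by 0.0531 at Myod1. It lay outside the 5 arrays of its day at 6 of the 14 islands, and the share of all islands where it did so was not counted. The 3 named islands whose pattern over the 16 adult arrays was most like that of the upstream island of Hand1 were those of Utx (Pearson r = 0.916), 3110070M22Rik (r = 0.914) and Negr1 (r = 0.914), measured on the same arrays and scan days.

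Cells of other kinds in the muscle samples were looked at through gene lists. Of 9 islands of muscle structural genes, 2 of blood genes and 6 of nervous system genes, 0 had both muscle arrays on the same side outside the other tissues, and no island carried the name of a listed fat gene. The median over the muscle structural genes was 0.222 and 1.45 on the muscle arrays, and 0.120 to 1.37 on the others, so the second muscle array was the highest. No expression was measured, so the label could not be checked further. Among 28 islands of 14 other regulators of skeletal muscle and 39 islands of 19 other regulators of the heart, 0 passed in muscle, and 0 of 18 islands of bHLH partners and inhibitors did so.

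Differentiated ES cells were compared with adult tissue to ask whether differentiation in culture gives the methylation found in the body. Scores were higher than in adult tissue at 8 of the 14 islands and lower at 1. In this comparison "rose" and "fell" mean a difference from adult tissue, not a change from the parent ES cells, which are compared further below. The islands that rose belonged to Myod1, Nkx2-5 (3 of its 4), Hand1 (upstream and downstream), Tcf21 and Prdm6 (intragenic), and the island that fell was that of Hand2. In limma 23.2% of all islands passed, 14.4% higher and 8.74% lower. Of the islands that passed 62.3% were higher, or 52.1% with scaling by median and median absolute deviation (MAD) and 80.0% with normexp background correction. The median difference was 0.603 over the 14 islands and -0.0100 over all.

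At Myod1 the 5 differentiated arrays scored 1.12 in embryoid bodies, 0.309 with retinoic acid, 0.890 and 1.11 in endoderm and 1.08 in mesoderm, and adult arrays -0.744 (lowest), -0.297 (median) and 0.429 (highest). All were above 0, and the retinoic acid array alone was within the adult range. The difference was 1.16 ± 0.159 (SE), with an adjusted p of 2.6e-06. All 5 probes were higher in differentiated cells than in adult tissue.

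Nkx2-5 was the gene with the most islands. Its near upstream island (chr17:26571709-26572481, 9 probes, -3304 to -2584 bases from the start) scored 0.777 in embryoid bodies, 1.19 with retinoic acid, 2.15 and 1.45 in endoderm and 1.16 in mesoderm, and adult arrays -0.766 (lowest), -0.389 (median) and 0.154 (highest). Every differentiated array was thus above 0.75 and above every adult array. The difference was 1.70 ± 0.227 (SE), with an adjusted p of 1.8e-06, and all 9 probes were higher. It was 1.09 (adjusted p = 0.00042) with slide as a block, 1.04 (adjusted p = 0.014) with scan day and 0.847 (adjusted p = 0.00098) with normexp background correction. The 5′ part of the gene (5 probes, 25 to 469 bases from the start) scored 0.602 in embryoid bodies, 1.15 with retinoic acid, 0.789 and 0.642 in endoderm and 1.14 in mesoderm, and adult arrays -0.305 (lowest), 0.0615 (median) and 0.548 (highest). These arrays did not overlap either, and the difference was 0.763 ± 0.151 (SE, adjusted p = 0.00038, or 0.056 with normexp background correction). Such a separation, every differentiated array above every adult one, held at these 2 of the 14 islands and at 2.51% of all.

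The 3′ part of Nkx2-5 behaved less evenly. It scored 0.490 in embryoid bodies, 1.62 with retinoic acid, 0.396 and 0.0298 in endoderm and 0.229 in mesoderm, so that the retinoic acid array was far above the other 4. Adult arrays were -0.569 (lowest), -0.192 (median) and 0.136 (highest). The difference was 0.785 ± 0.167 (SE, adjusted p = 0.00082, and 0.322 with adjusted p = 0.16 when slide was a block). The far upstream island (chr17:26577289-26578697) was not called, with -0.324 ± 0.330 (SD, n = 5) in differentiated cells and -0.447 ± 0.206 (SD, n = 16) in adult tissue (adjusted p = 0.45).

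Tcf21 (5 probes inside the gene) scored 0.347 in embryoid bodies, 1.26 with retinoic acid, 1.83 and 1.38 in endoderm and 1.29 in mesoderm, and adult arrays -0.705 (lowest), -0.0315 (median) and 0.704 (highest). Embryoid bodies lay within the adult range and the other 4 arrays above it. The difference was 1.26 ± 0.221 (SE, adjusted p = 8.6e-05), and it fell to 0.646 (adjusted p = 0.16) with slide and to 0.682 (adjusted p = 0.2) with scan day as a block.

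Prdm6 had islands that went different ways. The intragenic island (4 probes, 87772 to 88056 bases from the start) scored 1.61 in embryoid bodies, 0.161 with retinoic acid, 2.01 and 1.44 in endoderm and 1.47 in mesoderm, and adult arrays -0.294 (lowest), 0.160 (median) and 0.622 (highest). The retinoic acid array was within the adult range and the other 4 far above it, with a difference of 1.13 ± 0.179 (SE, adjusted p = 2.3e-05). The promoter island (11 probes) scored -0.222 in embryoid bodies, -0.399 with retinoic acid, -0.341 and -0.238 in endoderm and -0.252 in mesoderm, against -0.131 ± 0.0869 (SD, n = 16) in adult tissue. It was below 0 on every differentiated array, with a difference of -0.159 ± 0.0622 (SE, adjusted p = 0.064).

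Hand1 rose upstream and downstream of the gene. The upstream island (3 probes) scored 0.853 in embryoid bodies, -0.285 with retinoic acid, 2.23 and 1.16 in endoderm and 0.530 in mesoderm, and adult arrays -1.04 (lowest), -0.116 (median) and 0.279 (highest), with a difference of 1.16 ± 0.273 (SE, adjusted p = 0.0022). The 5 arrays were widely spread, and that with retinoic acid was among the adult ones. The downstream island (chr11:57643639-57644442) scored -0.103 in embryoid bodies, 0.837 with retinoic acid, 0.0209 and -0.00613 in endoderm and -0.242 in mesoderm, against -0.341 ± 0.268 (SD, n = 16) in adult tissue. Only the retinoic acid array was clearly above the adult range, whose highest value was 0.0230. The difference of 0.442 ± 0.149 (SE, adjusted p = 0.03) lost its call without that array and was 0.0275 (adjusted p = 0.94) with slide as a block. The 5′ part, already high in adult tissue, scored 1.16 in embryoid bodies, 2.00 with retinoic acid, 1.39 and 1.07 in endoderm and 0.528 in mesoderm, a mean of 1.23 against 1.23 in adult tissue (adjusted p = 1).

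Hand2 (chr8:60212976-60214623, 12 probes, -1041 to 554 bases from the start) fell. It scored -0.856 in embryoid bodies, -0.419 with retinoic acid, -0.712 and -0.784 in endoderm and -0.542 in mesoderm, and adult arrays -0.705 (lowest), -0.280 (median) and -0.0527 (highest). All 5 were below the adult median, and the ranges overlapped through the second pancreas array. The difference was -0.377 ± 0.0870 (SE, adjusted p = 0.0019), and 11 of 12 probes were lower. Msc at 0.125 ± 0.297 (SD, n = 5) and Mesp1 at 0.105 ± 0.0726 (SD, n = 5) in differentiated cells were not called against adult tissue (adjusted p = 0.27 and 0.6).

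Of the 9 calls those of Myod1, Nkx2-5 (near upstream), Hand1 (upstream), Hand2 and Prdm6 (intragenic) held under every alternative run on them, with a smaller size at Hand1 (upstream) with normexp, 0.552 (adjusted p = 0.0024). On a shared slide the second endoderm array exceeded the first pancreas array by 1.85 at Myod1, 1.29 at Nkx2-5 (near upstream), 1.36 at Tcf21 and 1.28 at Prdm6 (intragenic). On another slide embryoid bodies exceeded the second brain array by 1.37, 0.892 and 1.46 at Myod1, Nkx2-5 (near upstream) and Prdm6, and differed by -0.0693 at Tcf21. The direction of the pooled difference held at 8 of the 9 islands on each of these slides.

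**Figure D3:**
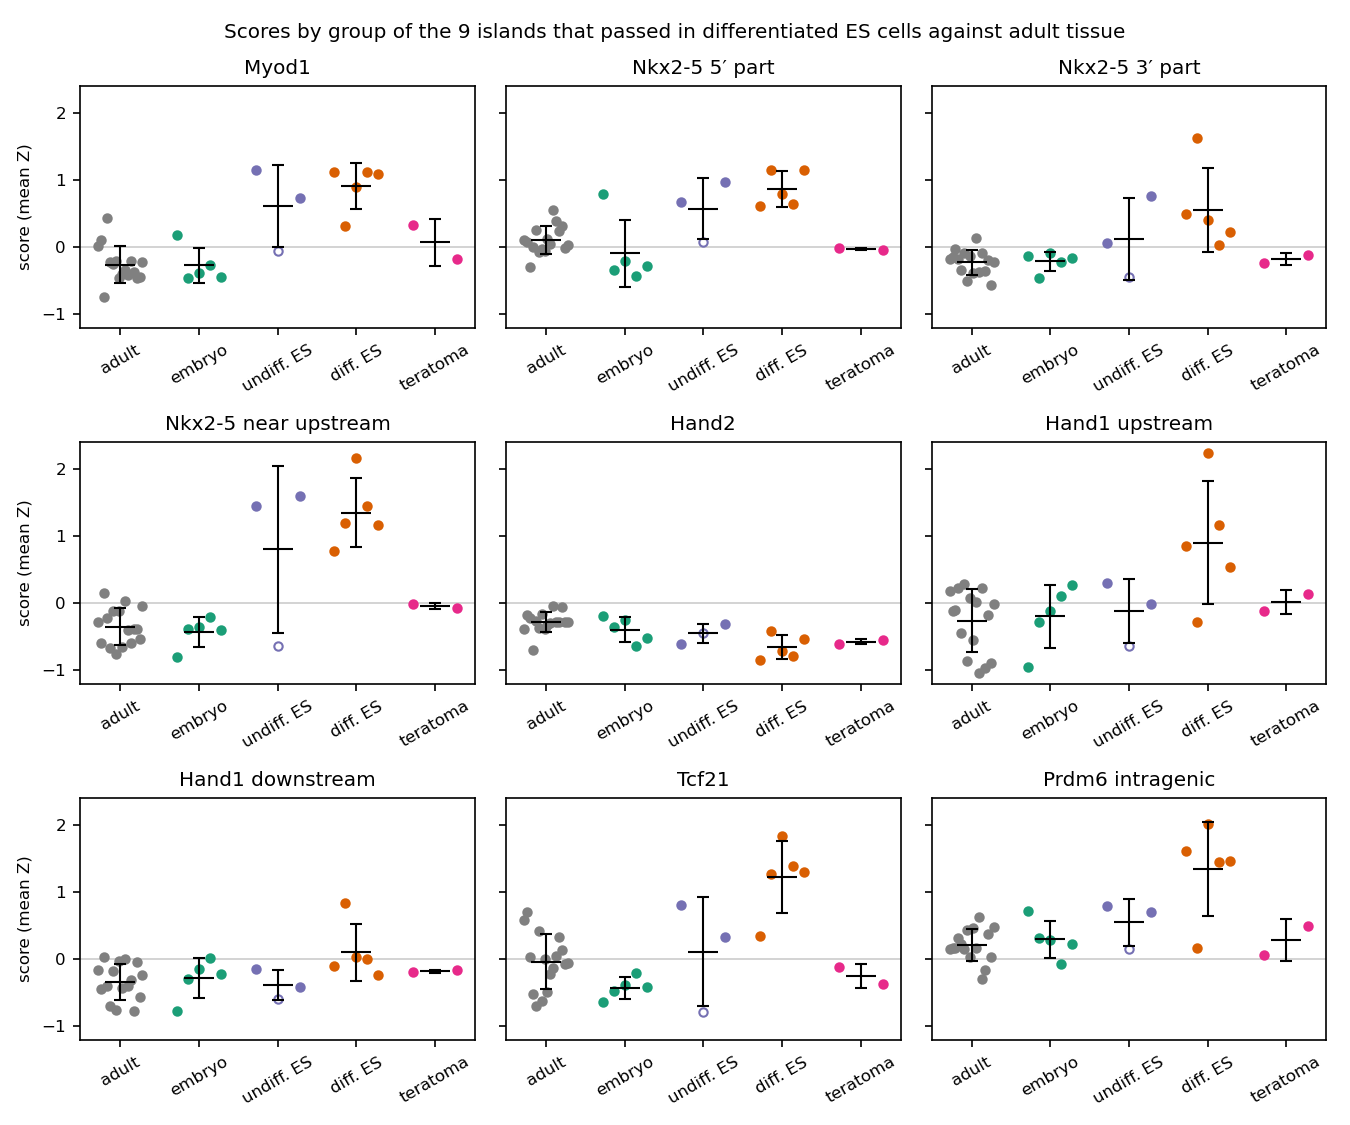
Island methylation score (mean Z, y axis) of the 9 islands called in differentiated ES cells against adult tissue, with a point for each array and bars for the group mean ± SD. The open circle is the array labelled J1, and the differentiated points at Nkx2-5 (5′ part and near upstream) are all above the adult points.

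**Figure D4:**
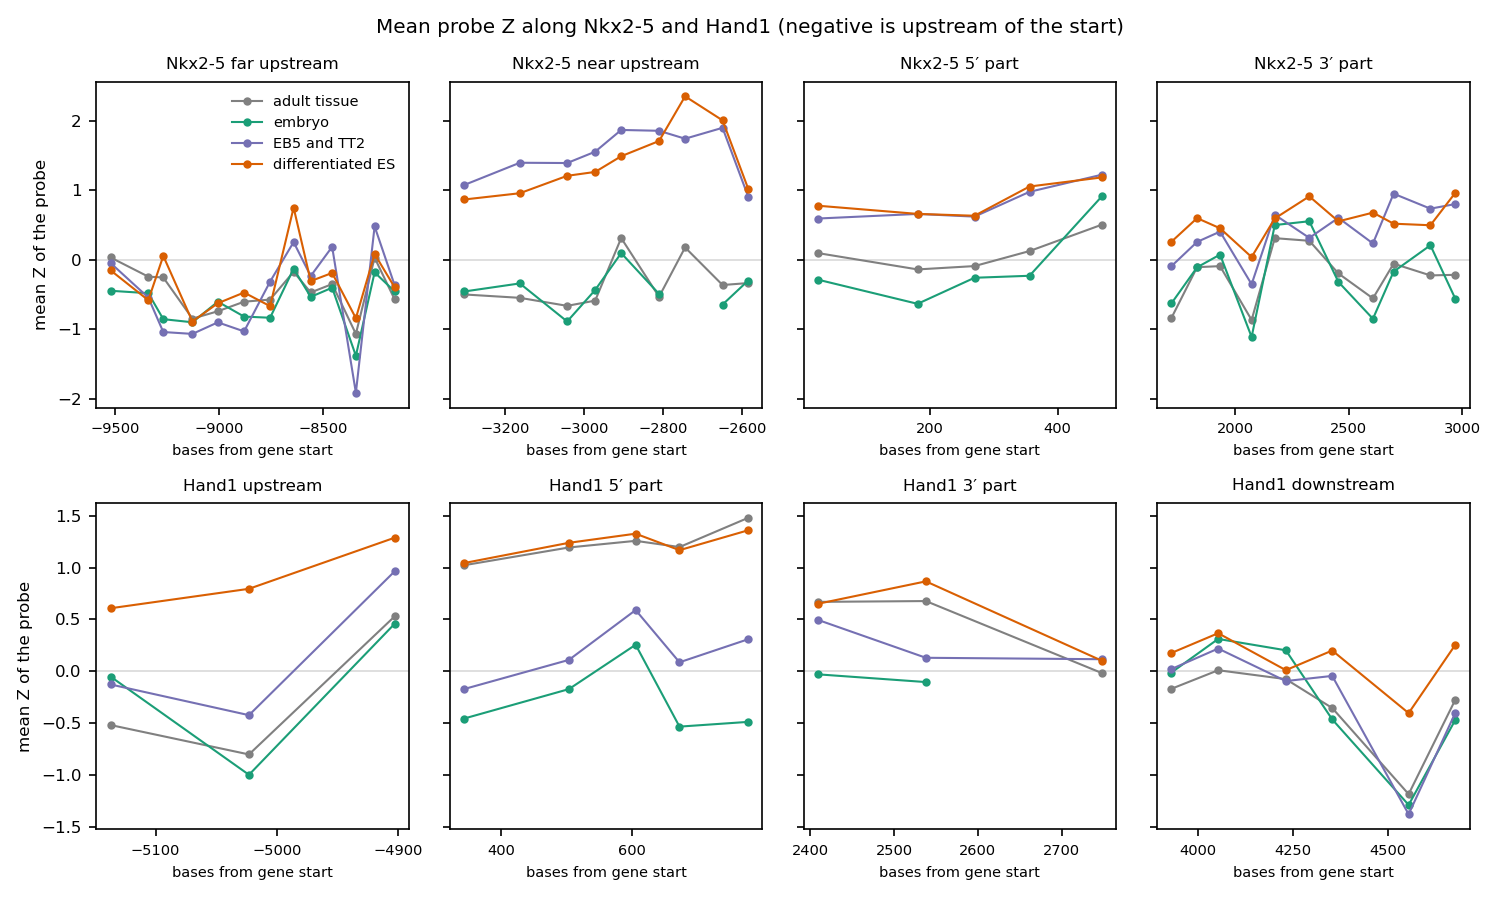
Mean Z of each probe (y axis) against its distance in bases from the gene start (x axis, negative upstream) along Nkx2-5 and Hand1, with lines for adult tissue, embryos, EB5 and TT2, and differentiated ES cells. All 9 probes of the near upstream island of Nkx2-5 are higher in differentiated cells than in adult tissue, whereas the 5 probes over the 5′ part of Hand1 are above 1 in both and between -0.534 and 0.256 in embryos. Gaps in the embryo lines are probes that the smaller array grid lacks.

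Embryos were compared in the same model to set cultured cells against an early stage in the body. In embryos 12 of the 14 islands had a mean below 0, against 67.4% of all islands. Of the 14, 0 were above 0.75, against about 11% of all. Against embryos, differentiated ES cells were higher at 8 islands and lower at 0, and 21.1% of all islands passed, 11.8% higher. Of those that passed 55.9% were higher, or 45.3% on the centred log2 ratio. Myod1 differed by 1.18 ± 0.196 (SE, adjusted p = 8.4e-05), with embryos at 0.178, -0.458, -0.392, -0.263 and -0.445 from 8.5 to 12.5 dpc. Nkx2-5 differed by 1.78 ± 0.280 (SE) near upstream (adjusted p = 4.3e-05), by 0.962 ± 0.187 (SE) at its 5′ part (adjusted p = 0.00049) and by 0.771 ± 0.206 (SE) at its 3′ part (adjusted p = 0.008). These were the same islands of Myod1 and Nkx2-5 that rose against adult tissue, a comparison that shares the differentiated arrays. Tcf21 differed by 1.65 ± 0.273 (SE, adjusted p = 7.4e-05), with embryos at -0.649, -0.483, -0.395, -0.206 and -0.422. The intragenic island of Prdm6 differed by 1.05 ± 0.221 (SE, adjusted p = 0.0011). Hand1 differed by 1.09 ± 0.336 (SE) upstream (adjusted p = 0.02) and by 1.51 ± 0.295 (SE) at its 5′ part (adjusted p = 0.00053), and only the latter was no call against adult tissue. All 5 differentiated arrays were above all 5 embryo arrays at 6 of the 14 islands, against 8.67% of all. At the near upstream island of Nkx2-5 the embryos scored -0.805, -0.389, -0.354, -0.205 and -0.400 in order of age, all below 0, and this call alone of the 8 held under every alternative run, with a difference from 0.766 with normexp to 2.87 with scan day as a block. With slide as a block 1 of the 8 calls was left, with scan day 4 and with software version 2. No slide or scan day held arrays of both groups. The retinoic acid and 8.5 dpc arrays shared a software version, and their difference had the pooled direction at 7 of the 8 islands.

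The 5′ part of Hand1 differed between embryo and adult. Embryos scored 0.117, -0.326, -0.485, -0.348 and -0.351 from 8.5 to 12.5 dpc, and every embryo array was below every adult array, which held at this 1 of the 14 islands and at 1.29% of all. The difference was -1.51 ± 0.239 (SE, adjusted p = 0.00014), the only call among the 14 in embryos against adult tissue, where 8.62% of all islands passed and 3.47% were lower. The array at 8.5 dpc was the highest of the 5 at 0.117. All embryo arrays were of other slides, scan days and software versions than the adult arrays. The difference was -1.54 (adjusted p = 0.84) with slide, -0.626 (adjusted p = 1) with scan day and -1.56 (adjusted p = 0.46) with software version as a block, so the call was lost, and no batch held both groups.

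Undifferentiated ES cells were examined because the differentiated cells came from such lines. Against adult tissue 3 islands were higher and 0 lower, and 2.3% of all islands passed, 0.984% higher. Myod1 scored 1.14 in EB5 and 0.723 in TT2, but -0.0585 on that labelled J1, with a difference of 0.866 ± 0.195 (SE, adjusted p = 0.017). Nkx2-5 near upstream scored 1.44, 1.59 and -0.638, with a difference of 1.15 ± 0.279 (SE, adjusted p = 0.026). The Prdm6 promoter island scored 0.121, 0.398 and 0.0403, with a difference of 0.318 ± 0.0763 (SE, adjusted p = 0.024). EB5 and TT2 were far above the array labelled J1 at the islands of Myod1 and Nkx2-5. With that array kept in the fit, 0 islands were called without EB5 or without TT2. With scan day as a block all 3 calls were lost, at 0.570 (adjusted p = 0.98) for Nkx2-5 near upstream, 0.443 (adjusted p = 0.98) for Myod1 and 0.173 (adjusted p = 0.98) for the Prdm6 promoter. With slide as a block Myod1 was 0.715 (adjusted p = 0.15) and the Prdm6 promoter 0.196 (adjusted p = 0.71), whereas Nkx2-5 near upstream was 1.66 (adjusted p = 0.0014).

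Without the array labelled J1, 5 islands were called, and 8.45% of all islands passed. Myod1 then differed by 1.20 ± 0.207 (SE, adjusted p = 0.0002) and Nkx2-5 near upstream by 1.87 ± 0.228 (SE, adjusted p = 1.1e-06). The 5′ part of Nkx2-5 was higher by 0.716 (adjusted p = 0.028) and that of Hand1 differed by -1.05 (adjusted p = 0.049), with EB5 at 0.0237 and TT2 at 0.346. On its own slide EB5 exceeded the second pancreas array by 0.715 at Myod1 and by 1.66 at Nkx2-5 near upstream.

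Differentiated cells were then set against undifferentiated cells, which share arrays with the comparisons above. Tcf21 differed by 1.11 ± 0.315 (SE, adjusted p = 0.034) and the Prdm6 promoter island by -0.477 ± 0.0886 (SE, adjusted p = 0.0017). Of all islands 5.49% passed, 3.54% higher and 1.95% lower. Without the array labelled J1 Tcf21 differed by 0.662 (adjusted p = 0.27) and the Prdm6 promoter island by -0.550 (adjusted p = 0.0015). Myod1 then differed by -0.0331 (limma adjusted p = 0.96) and the intragenic island of Prdm6 by 0.596 (limma adjusted p = 0.27). Nkx2-5 near upstream differed by -0.17 (limma adjusted p = 0.78). With scan day as a block Tcf21 was 0.519 (adjusted p = 0.58) and the Prdm6 promoter island -0.238 (adjusted p = 0.3), so both calls were lost. In that fit Myod1 (1.16, adjusted p = 0.0015) and the intragenic island of Prdm6 (1.25, adjusted p = 0.021) were called, with the array labelled J1 kept. Scan day as a block was not run without that array. With slide as a block the Prdm6 promoter island was -0.260 (adjusted p = 0.5) and the Tcf21 difference turned to -0.668 (adjusted p = 0.54). At Myod1 1 of 5 differentiated arrays was above its labelled parent, by 0.393 in embryoid bodies. At Nkx2-5 near upstream 2 of 5 were, with a median difference of -0.279. At Mesp1, Hand1 5′ part and Tcf21 5 of 5 arrays were above their parent, by 0.0347 to 0.321, 0.505 to 1.65 and 0.0241 to 1.03, and at the Prdm6 promoter 0 of 5 were. The share of all islands with such counts was not taken. Each parent line had a single array, shared by all its derivatives, so these differences are not independent and have no error of their own.

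Teratomas, tumours grown from ES cells in mice, were not called against adult tissue at any of these islands. Of the 14 islands 0 passed in limma, with 1 at an unadjusted p under 0.05, and 0.191% of all islands passed. Against ES cells differentiated in culture they were lower at 5 islands and higher at 0, with 6.8% of all islands passing and 5.26% lower. Tcf21 scored -0.124 and -0.377 in teratomas, a difference of -1.47 ± 0.355 (SE, adjusted p = 0.01). Nkx2-5 near upstream scored -0.0198 and -0.0799 (-1.40 ± 0.364 SE, adjusted p = 0.018), and its 5′ part -0.0168 and -0.0413 (-0.893 ± 0.243 SE, adjusted p = 0.022). Prdm6 intragenic scored 0.0595 and 0.497 (-1.06 ± 0.291 SE, adjusted p = 0.024) and Myod1 0.319 and -0.179 (-0.831 ± 0.261 SE, adjusted p = 0.05). Both teratomas were below every differentiated array at Tcf21 and at these Nkx2-5 islands. Among islands not called, they were also below at Mesp1 and the 3′ part of Nkx2-5, and above at the Prdm6 promoter. The share of all islands with such a separation was not counted. The calls rested on both teratoma arrays together and did not hold with 1 of them. With embryoid bodies, the first endoderm array or mesoderm left out 3 islands were called. All 5 calls were lost with software version as a block (adjusted p from 0.073 to 0.38), where the 3′ part of Nkx2-5 was called instead, and with the methods' t-test. A teratoma also holds cells of the host.

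**Figure D5:**
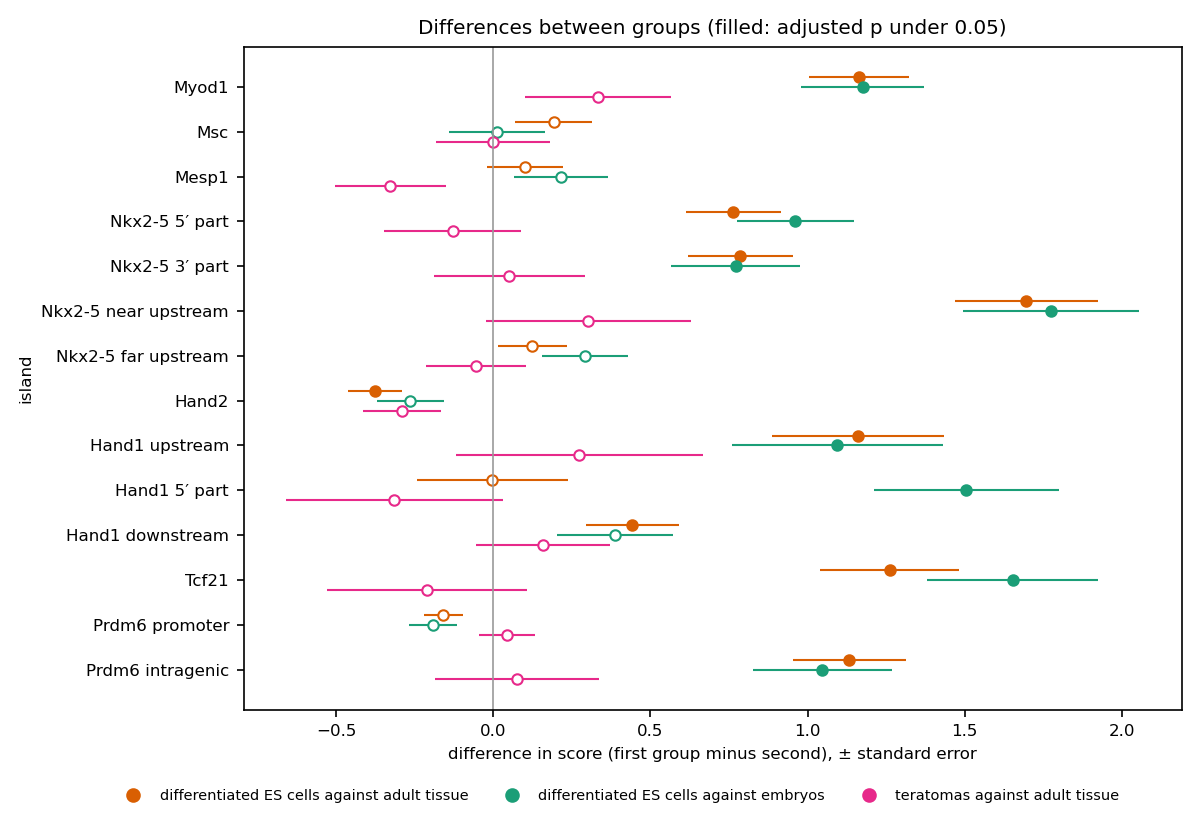
Difference in island methylation score (x axis, first group minus second, ± SE) at the 14 islands for differentiated ES cells against adult tissue and against embryos, and for teratomas against adult tissue, with filled points at an adjusted p under 0.05. The differentiated cells stand furthest to the right at the near upstream island of Nkx2-5 (1.70 and 1.78), and no teratoma point is filled.

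The pancreatic cells had 1 array each, so their values have no test. Both cell lines were above every adult array at 7 of the 14 islands, those of Msc, Mesp1, Nkx2-5 (3′ part and far upstream), Hand2, Hand1 (downstream) and Prdm6 (promoter), as at 12.3% of all islands. Hand2 scored 1.16 in Min6 and 1.09 in αTC, against -0.496 in sorted beta cells and at most -0.0527 in adult tissue. Mesp1 scored 1.75 and 1.48, against 0.521 in beta cells. The Prdm6 promoter island scored 1.52 and 1.17, against -0.0207 in beta cells. Hand2, Mesp1 and the Prdm6 promoter were thus high in the lines, where differentiated ES cells had means of -0.663, 0.105 and -0.290. Beta cells were inside the adult range at all 14 islands, whereas they were outside it at 21.7% of all islands. Min6, αTC and beta cells were scanned on a day with no adult array, and its part in these values was not tested.

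Other genes of the same programmes were described in differentiated ES cells against adult tissue by gene lists, whose counts are read against the 14.4% of all islands that were higher and the 8.74% that were lower. Of 28 islands of other skeletal muscle regulators 3 rose (10.7%) and 1 fell (3.57%), among them Lbx1 (1.98, adjusted p = 5.6e-05), a homeobox factor of migrating muscle precursors. Pax3, a paired box factor of muscle progenitors, also rose (0.514, adjusted p = 0.048), and its relative Pax7, named after its values were seen, was the one that fell (-0.475, adjusted p = 0.022). Of 39 islands of other heart regulators 11 rose (28.2%) and 4 fell (10.3%), among them Irx4 (1.58, adjusted p = 3.7e-08), which acts in the ventricles, Gata4 (1.28, adjusted p = 0.0093), a zinc finger partner of Nkx2-5, and its relative Nkx2-6 (1.25, adjusted p = 5.7e-08). The 4 that fell, also named after their values were seen, were at the T-box genes Tbx1 (-0.554), Tbx2 (-1.01) and Tbx3 (-1.21) and at Srf (-0.261), the serum response factor. The 11 that rose included another island of Srf (0.807) and islands of the T-box genes Tbx5 (0.668) and Tbx20 (0.469), named in the same way. Of 18 islands of bHLH partners and inhibitors 1 rose (5.56%) and 2 fell (11.1%), with Twist2 at 0.652, Twist1 at -0.247 and Scx, a factor of tendons, at -1.13 (adjusted p = 0.00016, 0.037 and 0.015). Of 9 islands of muscle structural genes 2 rose, Des (desmin, 1.28) and Acta1 (skeletal actin, 1.11), and 2 fell, both at Ryr1, the calcium release channel of skeletal muscle (the larger at -0.585). Of 6 islands of nervous system genes 4 rose, among them Neurod1 (1.26), Gfap (0.584) and Olig2 (0.566), and of 2 of blood genes 0 passed. The median difference was 0.0756 over the islands of heart regulators, -0.0384 over those of skeletal muscle regulators and -0.0100 over all islands.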

How the data were processed

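The 34 arrays were scanned by the authors, whose deposited scanner files hold spot intensities and, from background-subtracted and linearly dye-normalized signals of Agilent's Feature Extraction software, the log10 ratio of bound (Cy5) over input (Cy3) for each probe. The authors' deposited table of Z-scores per probe (a score taken by probe Tm) was used as an alternative only. Control spots, outlier spots and 442 probes without a position were left out, which kept 97651 probes on the larger grid and 88737 on the smaller. Log ratios were standardised to mean 0 and SD 1 over each array, without the Tm step, since probe sequences were not used here. Low enrichment of an array and its probes' melting behaviour can therefore still affect a score. Island scores are the mean Z of at least 3 probes.

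Groups were fitted in linear models with limma 3.58.1 (lmFit, eBayes) in R 4.3.3 over all 13620 islands, with Benjamini-Hochberg adjustment. Embryos, adult tissue and both kinds of ES cells shared 1 fit. Teratomas were added to these groups in a separate fit, used only for the comparisons with teratomas. The 8 tissues had another fit for muscle. The step was tested on simulated data. The members, lists and rules were chosen with earlier results of these data known. Genes named from the lists are those with the largest absolute difference among the islands past an adjusted p of 0.05, 3 at most from each list, of which 1 is not reported here, and likeness was the Pearson r over adult arrays. Alternatives covered the scaling, background correction, source, filters, island definition, technical batches, test and single arrays. The genome build was not given in the sources used here. Positions are those of the files.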

Additional observations from a re-analysis of the deposited data

Results flagged for a closer look

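In groups of 5 arrays, 5 of 28 islands by group combinations had an array far from the others by Dixon's criterion. Chance gives about 1 in 20 for like, independent replicates. These groups held different embryo stages, or different treatments and lines, so that rate does not apply and no excess is read from the count. All 5 came from the retinoic acid array and the embryo array at 8.5 dpc, and the share over all islands was not counted. The retinoic acid array scored 0.309 at Myod1, below the other differentiated arrays (nearest 0.890). The same array scored 1.62 at the 3′ part of Nkx2-5 (nearest 0.490) and 0.837 downstream of Hand1 (nearest 0.0209). The embryo array at 8.5 dpc scored 0.784 at the 5′ part of Nkx2-5 (nearest -0.212) and 0.117 at that of Hand1 (nearest -0.326). Each was the only array of its group read with its software version, which was also used for TT2 and the pancreatic cells, and the part of that version in these values was not tested.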

How the results depend on the processing

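Of 692 pairs of a called island and an alternative setting, 556 kept direction and call, 135 lost the call and 1 reversed. Tcf21 in differentiated against undifferentiated ES cells turned to -0.668 with slide as a block, and the cause was not tested. No island of these genes passed in muscle under any setting run, the replicate block of muscle (0 calls) included, and the other comparisons share no replicate numbers that pair arrays.

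Counts of called islands moved as follows, with causes not tested beyond the smaller number of islands scored by some settings. Differentiated ES cells against adult tissue gave 4 (of 9 scored) with the deposited table and 5 (of 10) with probes well above background, and 8 to 10 with single arrays or tissues left out. Of all islands called in that comparison 1966 of 3156 were higher, but 1212 of 2328 with median and MAD and 1213 of 2214 with the centred log2 ratio. Differentiated against undifferentiated cells gave 0 with only these groups in the fit, slide as a block, the methods' t-test or normexp, 1 with median and MAD, the log2 ratio or probes well above background, and 1 to 4 with arrays left out (1 without either endoderm array, mesoderm or J1, 4 without retinoic acid). There scan day and software version as blocks each gave 2, but not the same islands: with scan day these were Myod1 and Prdm6 (intragenic), and with version the 3′ part of Nkx2-5 and the Prdm6 promoter. In the same comparison the deposited table called the 5′ part of Hand1 and Hand2, but not the Prdm6 promoter (limma adjusted p = 0.08). Differentiated cells against embryos gave 1 with slide, 4 with scan day and 2 with software version as a block, 5 with normexp, 4 with the table and 5 with probes well above background, and 7 to 9 with arrays left out. Embryos against adult tissue gave 0 with slide, day or version as a block or normexp and 1 with any array left out. Undifferentiated cells against adult tissue gave 1 with only these groups, slide or version as a block, 0 with scan day, the t-test, median and MAD, the log2 ratio or normexp, and 0 to 5 with arrays left out (0 without EB5 or TT2, 5 without J1). With the deposited table the calls were at Myod1 (1.12, limma adjusted p = 1.7e-05) and at the 5′ parts of Nkx2-5 and Hand1, and that of the Prdm6 promoter was lost. Teratomas against differentiated cells gave 1 with version as a block (the 3′ part of Nkx2-5), median and MAD or normexp, 0 with the t-test, 2 with the log2 ratio, 3 with the table or at least 5 probes, and 0 to 5 with arrays left out (0 without either teratoma). Teratomas against adult tissue gave 0 in every setting run.

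Normexp on median signals, probes of both grids only and leaving out J1 elsewhere were chosen after seeing the data. Normexp on mean signals was not run, since some files lack them. Slide, day and version as blocks could not be fitted for muscle, nor slide and day for teratomas. Bound signals as low as 1.54 times background limit what the scores can resolve.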
